A study of Homo sapiens with 8 samples.

Results

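Fibrillins and latent TGF-beta binding proteins (LTBPs) were followed through ribosome profiling of G401 cells, a line from a rhabdoid tumor of the kidney that lacks SMARCB1, a core subunit of the mSWI/SNF chromatin remodeling complexes. The 10 genes are FBN1, FBN2, LTBP1, LTBP2, LTBP3, LTBP4, MFAP2, MFAP5, EMILIN1 and FBLN5, out of 20719 gene IDs in the series. They were chosen from the data by name and because FBN2 was almost absent in only 1 of the 2 lines studied, so every difference between the lines in these 10 genes is given below as a description, with no test.

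The study used 2 derivatives of G401, in which a Tet-On promoter drives either SMARCB1 or, as a control, GFP. The SMARCB1 line and the GFP line were each treated for 12 h with 0.1 μg/ml doxycycline (Dox) or with its solvent DMSO, which gives 4 groups of 2 libraries. Every group therefore carries an inducible cassette, and only SMARCB1 Dox cells were set to make SMARCB1. Plates of cells were pooled for each condition and the experiment was done in duplicate, so the p-values measure only the spread between these samples. Each line is a single population, and whether it derives from a single clone is not given in the sources used here. A footprint count is the number of ribosome-protected fragments that fell on a gene's coding sequence, and it reports ribosome occupancy of the mRNA. RNA-seq was not analysed here, so a change in mRNA amount and a change in its translation cannot be told apart. In a bulk library, fewer cells carrying a transcript and fewer footprints per cell cannot be told apart either.

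Fibrillins are very large, cysteine-rich glycoproteins that assemble head to tail into microfibrils, the scaffold on which elastin is deposited. LTBPs are shorter relatives built from the same kinds of calcium-binding EGF-like and cysteine-rich modules. LTBP1, LTBP3 and LTBP4 hold latent TGF-beta and anchor it to the matrix, from which integrins and other activators release it, whereas LTBP2 does not bind TGF-beta. MFAP2 and MFAP5 are small microfibril-associated glycoproteins, EMILIN1 sits at the interface of elastin and microfibrils, and FBLN5 (fibulin-5) links elastin to the microfibril and to cells.

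Because FBN1 and FBN2 are close paralogs, it was first asked whether their short footprints could be told apart. Translated from the canonical transcripts, the 2 proteins were identical at 69.9% of 2846 aligned residues, while any 2 LTBPs were identical at 44.4% to 48.2%. At the level of nucleotides the likeness was far lower over short stretches. Of 8586 windows of 28 bases in the FBN1 coding sequence, 2 also occurred in FBN2, and none of the windows of LTBP1, LTBP2, LTBP4, MFAP2, MFAP5, EMILIN1 or FBLN5 occurred in the coding sequence of another gene. LTBP3 shared 13 of 3882 windows with other genes. No coding base of the 10 genes overlapped the coding sequence of another gene. The longest run that FBN1 and FBN2 share in full is shown here, with all 29 bases in capitals because all are identical.
FBN1 coding bases 526 to 554 and FBN2 coding bases 616 to 644: CAGTGTGAAAGAGATTACAGGACAGGCCC

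The coding stretches around the integrin-binding Arg-Gly-Asp triplets are shown next, since they are where the 2 fibrillins differ in a known cell-contact site and they give an idea of how far the sequences diverge. Capitals mark the codons of the triplet. FBN1 has 1 such triplet and FBN2 has 2.
FBN1 residue 1541: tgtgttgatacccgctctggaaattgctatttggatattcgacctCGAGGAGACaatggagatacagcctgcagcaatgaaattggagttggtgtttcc
FBN2 residue 1586: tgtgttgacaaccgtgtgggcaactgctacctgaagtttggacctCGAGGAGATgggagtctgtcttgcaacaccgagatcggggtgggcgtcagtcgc
FBN2 residue 1061: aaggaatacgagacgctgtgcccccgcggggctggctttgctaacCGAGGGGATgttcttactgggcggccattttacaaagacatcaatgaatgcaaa

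The promoters of FBN1, FBN2 and LTBP2 had an entry in the RefSeq promoter table (GRCh38.p14) with a single start site, and these are shown because FBN2 and LTBP2 were the members with the widest gaps between the lines. Each run is the 250 bases before the RefSeq start on the gene's own strand, all 3 on the minus strand. That start lies within the full gene span given below. The FBN2 and FBN1 windows therefore fall inside their spans, and the LTBP2 window overlaps the edge of its span. Capitals mark GC boxes (GGGCGG on either strand).
FBN2 chr5:128538246-128538495: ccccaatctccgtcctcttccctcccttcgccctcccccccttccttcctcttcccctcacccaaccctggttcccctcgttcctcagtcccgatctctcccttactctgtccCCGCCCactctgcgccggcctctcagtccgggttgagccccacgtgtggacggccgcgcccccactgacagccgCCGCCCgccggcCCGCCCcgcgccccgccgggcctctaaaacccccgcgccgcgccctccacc
LTBP2 chr14:74612238-74612487: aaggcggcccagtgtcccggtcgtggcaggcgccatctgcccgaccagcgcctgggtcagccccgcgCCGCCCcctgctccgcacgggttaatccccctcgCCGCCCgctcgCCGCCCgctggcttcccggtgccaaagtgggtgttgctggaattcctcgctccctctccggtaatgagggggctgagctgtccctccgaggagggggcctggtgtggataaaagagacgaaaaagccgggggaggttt
FBN1 chr15:48644971-48645220: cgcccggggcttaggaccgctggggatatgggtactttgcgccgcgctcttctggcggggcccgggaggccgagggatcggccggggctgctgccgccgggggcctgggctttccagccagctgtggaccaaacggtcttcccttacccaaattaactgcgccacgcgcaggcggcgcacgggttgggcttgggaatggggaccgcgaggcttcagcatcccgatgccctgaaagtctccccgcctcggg
The FBN2 and LTBP2 windows each held 3 GC boxes and the FBN1 window held 0, against 42.6% of all 35116 promoters with at least 1. CpG dinucleotides numbered 25 in FBN2, 23 in LTBP2 and 25 in FBN1, where the median promoter had 11. None of the 3 windows held an AP-1 motif (TGANTCA, both strands; in 6.57% of promoters) or a TATA box (TATAAA, both strands; in 10.7%). The full gene spans on GRCh38 were chr5:128257909-128659185 for FBN2, chr15:48408313-48645721 for FBN1, chr2:32946953-33399509 for LTBP1 and chr14:74498183-74612378 for LTBP2.

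The libraries held 5924443 to 14000039 footprint counts on genes. The labels were checked on the induced gene, and footprints on SMARCB1 numbered 2553 and 1750 in the induced SMARCB1 line, with 0 in the remaining 6 libraries. VIM, KRT8 and KRT18, which mark rhabdoid cells, summed to 4571 to 6781 CPM (footprint counts divided by the TMM-scaled total of the library and given per 1000000) in the SMARCB1 line and 5187 to 5861 CPM in the GFP line. The sum hid members that went opposite ways. VIM was higher in all libraries of the SMARCB1 line (2437 to 3384 CPM, against 1212 to 1622 in the GFP line). KRT8 had lower means there (1630 against 2244 CPM under DMSO, 1273 against 2437 with Dox). So did KRT18 (1120 against 1727 CPM under DMSO, 863 against 1496 with Dox), and for both genes the lines overlapped. Leukocyte markers were at 0 in all 8 libraries and endothelial markers summed to at most 1.59 CPM. Of 5 fibroblast markers, LUM was at 0 and THY1 had at most 3 counts in any library, but the list summed to 925 to 1591 CPM in the SMARCB1 line and 1899 to 2821 CPM in the GFP line. Most of that gap was COL1A1, with 277 to 570 counts a library in the SMARCB1 line and 7313 to 20043 in the GFP line, and its part in the line differences given here was not tested. In the library GFP Dox replicate 1, 56.4% of reads aligned to several places, against 25.6% to 39.7% in the others.

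Among the fibrillins, FBN2, the fibrillin of fetal tissue whose mutation causes congenital contractural arachnodactyly, was read almost wholly in the GFP line. Its counts were 1001 and 1171 in GFP DMSO and 672 and 524 in GFP Dox. In the SMARCB1 line it had 1 and 0 counts with DMSO and 1 and 0 counts with Dox. The libraries of the 2 lines did not come near each other, and the gap was there with and without Dox. In CPM, the GFP-line libraries held 82.3 and 81.4 under DMSO and 111 and 77.5 with Dox. Over all 4 libraries of each line, 3368 counts stood against 2, a ratio of 1587 scaled for depth, with a 95% counting interval of 439 to 13110. That interval covers counting error only, and replicate libraries differed by more than that. It is a description and no test, since FBN2 was chosen for this gap. Since FBN2 entered the fit through its GFP-line libraries alone, its Dox effect in the SMARCB1 line rests on 2 footprints and its interval of −2.58 to 2.61 on the log2 scale says little.

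FBN1, the main fibrillin of adult tissue and the gene mutated in Marfan syndrome, was present in every library. It stood at 64.7 and 46.4 CPM in SMARCB1 DMSO (55.5 ± 13.0, SD, n = 2). With Dox in the same line it stood at 110.0 and 107 CPM (109 ± 1.91). Both Dox libraries lay above both DMSO libraries. In the GFP line FBN1 had 92.1 and 92.4 CPM under DMSO and 118 and 90.1 CPM with Dox, and the groups overlapped. SMARCB1 DMSO was thus the lowest of the 4 groups. The libraries of SMARCB1 Dox lay above those of GFP DMSO, and GFP Dox overlapped both. FBN2 made up 45.7% to 47.8% of fibrillin footprints per kilobase of coding sequence in the GFP line and at most 0.251% in the SMARCB1 line.

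Among the LTBPs, the 2 lines had opposite leading members. LTBP1, the widely expressed carrier of latent TGF-beta, had 398 and 364 CPM in SMARCB1 DMSO and 329.9 and 426 CPM in SMARCB1 Dox. In the GFP line it had 179.7 and 179 CPM under DMSO and 146 and 172 CPM with Dox. All 4 libraries of the SMARCB1 line were above all 4 of the GFP line, by 1.09 on the log2 scale under DMSO (SE 0.24) and 1.25 with Dox (SE 0.24).

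LTBP2, which competes with latent TGF-beta carriers for fibrillin-1 and binds fibulin-5, ran the other way. It had 43.7 and 61.0 CPM in SMARCB1 DMSO, 38.5 and 52.6 in SMARCB1 Dox, 215 and 265 in GFP DMSO and 255 and 286 in GFP Dox. The lowest GFP-line library stood far above the highest SMARCB1-line library, and the log2 difference of the SMARCB1 line from the GFP line was −2.19 under DMSO (SE 0.27) and −2.57 with Dox (SE 0.27).

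LTBP3 and LTBP4, carriers of latent TGF-beta known for bone and for elastic tissue of lung and vessels, were close to each other in every group. LTBP3 had 63.2 and 49.3 CPM in SMARCB1 DMSO, 42.3 and 47.4 in SMARCB1 Dox, 58.8 and 70.0 in GFP DMSO and 81.4 and 78.5 in GFP Dox. LTBP4 had 53.2 and 57.8 CPM in SMARCB1 DMSO, 35.3 and 48.0 in SMARCB1 Dox, 56.7 and 72.2 in GFP DMSO and 74.8 and 81.8 in GFP Dox. For both genes the lines overlapped under DMSO and stood apart with Dox.

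Levels were compared between genes per kilobase of coding sequence (the union of all annotated coding exons). In the SMARCB1 line, LTBP1 made up 66.9% to 72.7% of the footprints of the 4 LTBPs and LTBP2 7.13% to 10.5%. In the GFP line, LTBP1 made up 25.7% to 34.8% and LTBP2 39.2% to 42.9%. LTBP2 was ahead of LTBP1 in every GFP-line library and far behind it in every SMARCB1-line library. The summed CPM of the 4 LTBPs overlapped between the lines, at 446 to 574 CPM in the SMARCB1 line and 510 to 619 CPM in the GFP line.

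**Figure D1:**
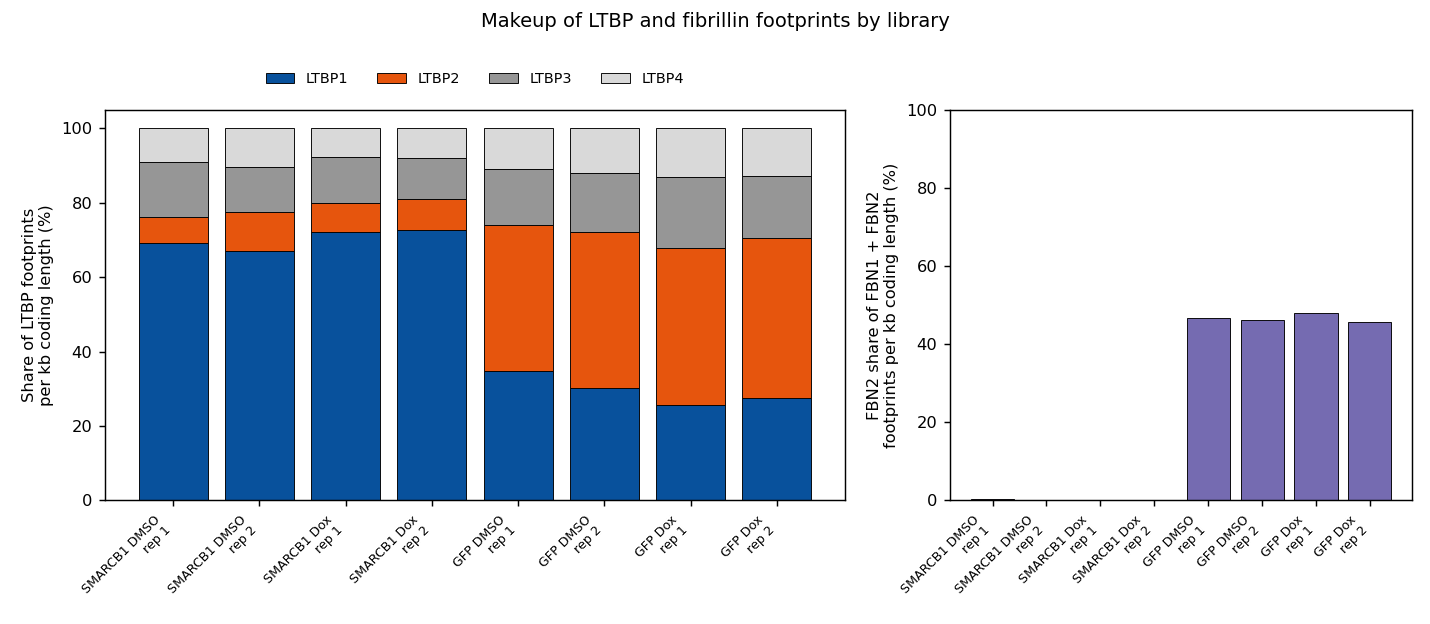
Left, the share of each LTBP in the footprints of LTBP1 to LTBP4 per kilobase of coding length, as a stacked bar for each of the 8 libraries. Right, the share of FBN2 in the footprints of FBN1 and FBN2 on the same scale. LTBP1 holds 66.9% to 72.7% in the SMARCB1 line and 25.7% to 34.8% in the GFP line, and FBN2 holds 45.7% to 47.8% in the GFP line and at most 0.251% in the SMARCB1 line.

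Of the small partners, MFAP2 (MAGP-1), which binds fibrillin along the microfibril, had 10.3 and 17.3 CPM in SMARCB1 DMSO, 15.9 and 17.1 in SMARCB1 Dox, 24.1 and 22.2 in GFP DMSO and 8.11 and 16.1 in GFP Dox. GFP DMSO was the highest group and the other 3 overlapped. FBLN5 had 5.67 and 4.67 CPM in SMARCB1 DMSO, 6.53 and 5.07 in SMARCB1 Dox, 13.9 and 14.4 in GFP DMSO and 12.9 and 12.1 in GFP Dox. All libraries of the GFP line were above all of the SMARCB1 line, and the log2 difference of the SMARCB1 line from the GFP line was −1.46 under DMSO (SE 0.36) and −1.10 with Dox (SE 0.36).

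The last members gave next to no footprints. EMILIN1 had 5 and 8 counts in SMARCB1 DMSO, 8 and 3 in SMARCB1 Dox, 5 and 18 in GFP DMSO and 0 and 2 in GFP Dox, and did not pass the filter on low counts. MFAP5 (MAGP-2) had 0 counts in all 8 libraries, which allows up to 0.0392 CPM over the 8 libraries together. This limit, like the count intervals, covers counting error only.

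Over the 10 members, the 4 libraries of one line lay wholly beyond those of the other for 4, namely FBN2, LTBP2 and FBLN5 (higher in the GFP line) and LTBP1 (higher in the SMARCB1 line). Of all genes tested, 17.6% were apart in this way, and since FBN2 was the reason for the choice, nothing is read from the count of members. Some differences between the lines were unlike with and without Dox. The log2 difference of FBN1 was −0.74 under DMSO (SE 0.25) and 0.06 with Dox (SE 0.24). For MFAP2 it was −0.72 (SE 0.36) and 0.44 (SE 0.37), for LTBP3 −0.20 (SE 0.24) and −0.84 (SE 0.24), and for LTBP4 −0.21 (SE 0.25) and −0.91 (SE 0.25). For these genes, whether such pairs of values differ is the same question as whether Dox acted differently in the 2 lines. Their choice did not use that question, and it was tested.

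**Figure D2:**
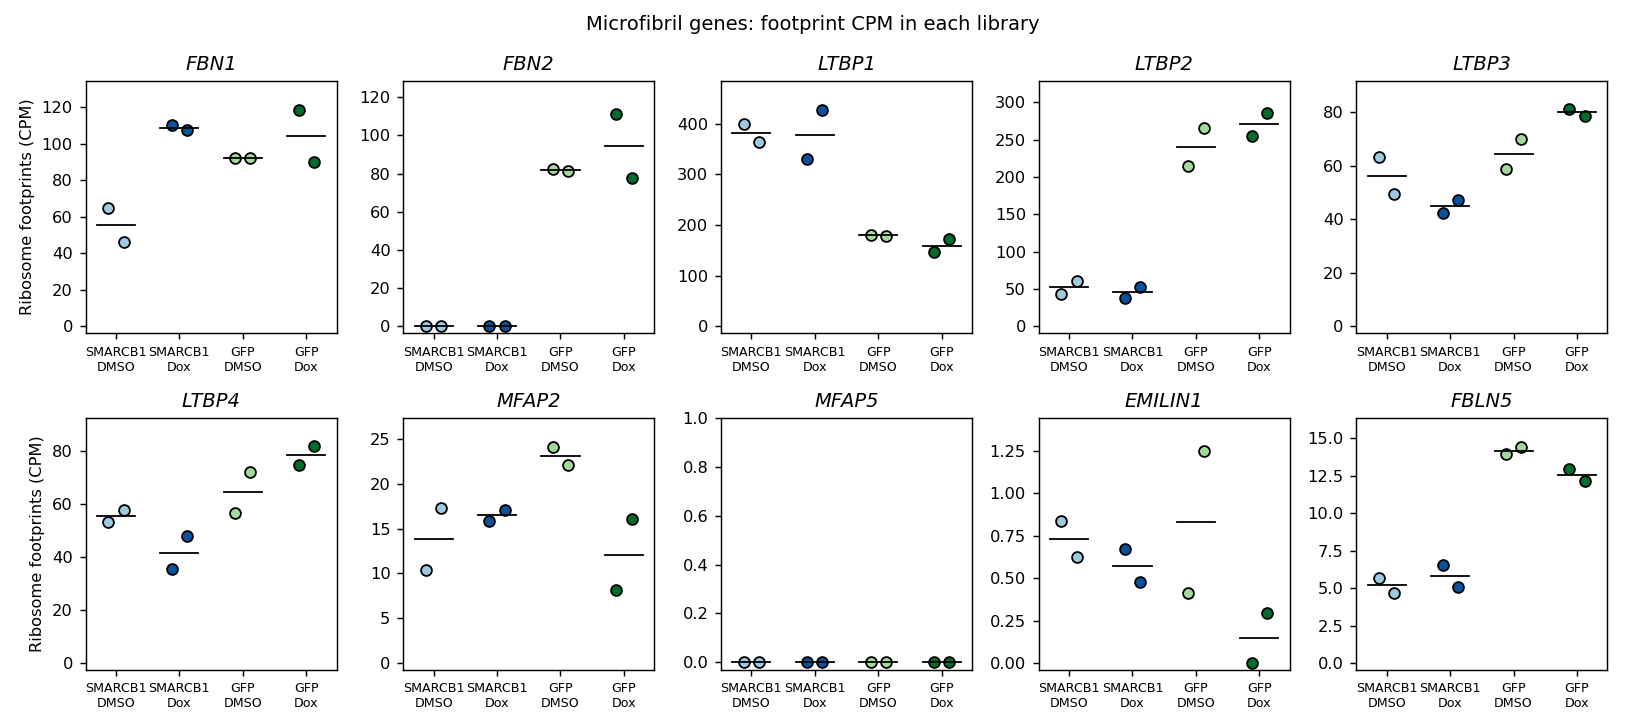
Ribosome footprints in CPM (linear axis, its scale set for each gene) of the 10 members in the 8 libraries. Points are libraries, horizontal bars are means of 2, and colors mark the SMARCB1 line with DMSO or Dox and the GFP line with DMSO or Dox. FBN2 lies at or near 0 in all 4 SMARCB1-line libraries and between 77.5 and 111 CPM in the GFP line, and FBN1 rises from 55.5 to 109 CPM on average between SMARCB1 DMSO and SMARCB1 Dox.

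It was then asked whether induction of SMARCB1 changed these genes. The choice of members did not use that comparison, except for FBN2, which was chosen as almost absent in both groups of the SMARCB1 line. With edgeR's quasi-likelihood test, 8 of the 10 members could be tested and 0 were called at an adjusted p below 0.05 and a fold change above 2 in the SMARCB1 line, where 0.018% of the 11097 genes tested were called. DESeq2 also called 0 of the members. For FBN2, with 1 count in each SMARCB1-line group, that outcome was fixed in advance. At an unadjusted p below 0.05 edgeR had 1 member, FBN1, and 552 of all genes. FBN1 had a log2 fold change of 0.97 (SE 0.25, 95% interval 0.44 to 1.50), a 1.96-fold higher mean, with an unadjusted p of 0.00148 and an adjusted p of 0.358 in edgeR's test. Both SMARCB1 Dox libraries were above both DMSO libraries, and the share of all genes apart in this way was not computed. These libraries held 5924443 and 13700539 counts with DMSO and 11407983 and 6005867 with Dox, and an effect of depth was not tested. The adjusted p of FBN1 ran from 0.0756 to 1.00 over the alternatives, with a log2 fold change of 0.75 to 1.23.

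The other members moved less in the SMARCB1 line. LTBP4 had a log2 fold change of −0.42 (95% interval −0.95 to 0.11) and LTBP3 of −0.32 (−0.83 to 0.19), in both cases with the 2 Dox libraries under the 2 DMSO libraries. LTBP2 had −0.21 (−0.77 to 0.35), LTBP1 −0.01 (−0.51 to 0.49), MFAP2 0.24 (−0.54 to 1.01) and FBLN5 0.19 (−0.60 to 0.98), with overlapping libraries. The intervals of LTBP1, LTBP2, LTBP3, LTBP4 and FBLN5 exclude a change of 2-fold in either direction, and those of MFAP2, FBN1 and FBN2 do not. FBN2 had 1 count in each group of the SMARCB1 line. Its near absence across that line was the reason for the choice, so nothing on induction is read from it.

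In the GFP line, which controls for Dox and for induction as such, edgeR's test called 0 members and 0% of all genes, and DESeq2 called 0 members. At an unadjusted p below 0.05 it had 1 member, MFAP2, and 240 of all genes. MFAP2 had a log2 fold change of −0.93 (SE 0.36, 95% interval −1.71 to −0.15), with an unadjusted p of 0.0233 and an adjusted p of 1.00 in edgeR's test. Its lowest library was GFP Dox replicate 1, the library with the most reads aligned to several places, and the log2 fold change was −0.52 without that library and −1.51 without GFP Dox replicate 2, called in neither case. LTBP3 (0.31, 95% interval −0.19 to 0.82) and LTBP4 (0.28, −0.24 to 0.81) had both Dox libraries above both DMSO libraries here, the reverse of the SMARCB1 line. MFAP2, LTBP1, FBLN5 and EMILIN1 had both Dox libraries under both DMSO libraries. How often 2 libraries lay beyond 2 over all genes was not computed, so nothing is read from such separations in either line. FBN2 had 0.20 (−0.40 to 0.81), FBN1 0.18 (−0.35 to 0.70), LTBP2 0.17 (−0.37 to 0.72), LTBP1 −0.17 (−0.67 to 0.33) and FBLN5 −0.18 (−0.91 to 0.56). EMILIN1 was too low to be tested. Its count ratio between GFP Dox and GFP DMSO was 0.180, with a 95% counting interval of 0.0206 to 0.730. That interval covers counting error only, and 18 of the 23 GFP DMSO counts came from replicate 2, so no change is read from it.

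The difference between the Dox effects of the 2 lines was called for 0 members and for 0% of all genes by edgeR, with 443 genes at an unadjusted p below 0.05, and DESeq2 called 0 members. Among the members, 2 were at an unadjusted p below 0.05. MFAP2 had a log2 difference of 1.16 (95% interval 0.06 to 2.26, unadjusted p of 0.0396) and FBN1 of 0.80 (0.05 to 1.54, unadjusted p of 0.0372), both with an adjusted p of 0.981 in edgeR's test. LTBP4 had −0.70 (−1.45 to 0.05) and LTBP3 −0.64 (−1.35 to 0.08), LTBP2 −0.38 (−1.16 to 0.39), FBLN5 0.37 (−0.71 to 1.44) and LTBP1 0.16 (−0.55 to 0.87). No member can thus be said to respond differently in the 2 lines. The median log2 fold change over the tested members was 0.00 in the SMARCB1 line, 0.17 in the GFP line and −0.02 for the difference, where the medians over all genes were −0.02, 0.02 and −0.03.

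**Figure D3:**
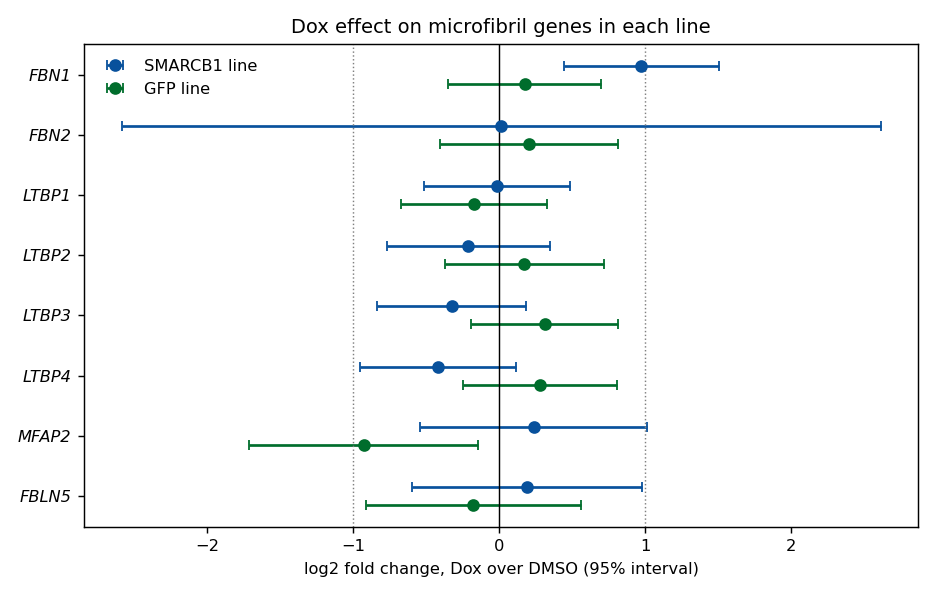
The log2 fold change of Dox over DMSO (points) with its 95% interval (bars) from edgeR's fit, for the 8 members tested, in the SMARCB1 line (blue) and the GFP line (green), with dotted lines at a 2-fold change in each direction. The interval lies above 0 for FBN1 in the SMARCB1 line (0.44 to 1.50) and under 0 for MFAP2 in the GFP line (−1.71 to −0.15), and the interval of FBN2 in the SMARCB1 line spans −2.58 to 2.61.

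The other genes of the pathway were taken from 5 lists of 84 genes, of which 53 could be tested and 12 had 0 counts in all libraries. Their differences between the lines were tested with edgeR. The lists were drawn up from the pathway with earlier results of these data known, so a share above that of all genes is not independent evidence. Under DMSO, 13 of 53 (24.5%) were called, of which the SMARCB1 line had more footprints for 5 and fewer for 8, against 4.97% of all genes tested. That count was 5 of 42 (11.9%) with at least 10 counts in every library, against 3.06% of all genes, 7 of 54 (13.0%) without SMARCB1 DMSO replicate 2, against 3.38%, and 6 of 54 (11.1%) without GFP DMSO replicate 2, against 2.67%. With Dox, 14 of 53 (26.4%) were called, 9 higher and 5 lower, against 6.08% of all genes. Under the stricter filter the count was 8 of 42 (19.0%), against 377 of 9424 genes. The 2 comparisons share no library, but they share the 2 lines and the fit over all libraries, so they are not independent. In both, 10 genes were called, 5 higher and 5 lower each time, with none called in opposite directions. Among these were BMP7 and ITGB6, with 0 counts in all SMARCB1-line libraries, and PCSK6, with at most 3 counts in any GFP-line library. The share of all genes called in both is not given here, so the count of 10 has no background to be judged against. The median log2 difference over the 53 was 0.34 under DMSO and 0.28 with Dox, and that of all genes was 0.02 and −0.01.

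Among 9 tested partners of elastic fibers and microfibrils, 2 were lower in the SMARCB1 line under DMSO, and 1 was higher and 1 lower with Dox. FBN3, the remaining human fibrillin, had 4 and 0 counts in SMARCB1 DMSO, 10 and 0 in SMARCB1 Dox, 48 and 77 in GFP DMSO and 39 and 24 in GFP Dox. All GFP-line libraries were above all SMARCB1-line libraries. Its log2 difference was −4.20 under DMSO (SE 1.12, adjusted p of 0.0430). That call was lost without SMARCB1 DMSO replicate 2 (−2.78), GFP DMSO replicate 1 (−4.36) or GFP DMSO replicate 2 (−3.92). It was also lost under DESeq2 (−3.92) and with scaling by library size alone (−4.25). MMRN2 (multimerin-2), an EMILIN-family protein of vessel matrix, had a log2 difference of −2.26 under DMSO (SE 0.44, adjusted p of 0.00498) and −2.73 with Dox (SE 0.45, adjusted p of 0.00147). Its DMSO call was lost without SMARCB1 DMSO replicate 2 (−2.26) or GFP DMSO replicate 2 (−1.90). The gene higher with Dox was EMILIN2, a relative of EMILIN1 named after its values were seen. It had 3 and 8 counts in SMARCB1 DMSO, 78 and 30 in SMARCB1 Dox, 3 and 8 in GFP DMSO and 0 and 0 in GFP Dox. Its Dox effect was not called in the SMARCB1 line (adjusted p of 0.336), nor was the difference of the Dox effects (adjusted p of 0.977).

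Among 14 tested enzymes that crosslink, process or modify microfibrils, 3 rose above and 1 fell below the GFP-line level in the SMARCB1 line under DMSO, and 4 were higher and 1 lower with Dox. PCSK6 (PACE4), a furin-like convertase that cleaves TGF-beta family precursors, had 66 and 104 counts in SMARCB1 DMSO and 199 and 95 in SMARCB1 Dox, against 0 and 3 in GFP DMSO and 0 and 1 in GFP Dox. The count ratio of the SMARCB1 line to the GFP line was 79.9 under DMSO (95% counting interval 26.9 to 391) and 206 with Dox (36.7 to 8171), and both calls stood under every alternative in which it could be tested. ADAMTS6, a protease that acts on microfibril components, was higher by 3.75 on the log2 scale under DMSO (SE 0.70, adjusted p of 0.00365; 3.07 and no longer called without GFP DMSO replicate 2) and by 4.18 with Dox (SE 0.81, adjusted p of 0.00509).

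POFUT2 and B3GLCT act in sequence to add fucose and glucose to thrombospondin repeats, such as those of ADAMTS proteins. POFUT2 was higher by 1.37 under DMSO (SE 0.25, adjusted p of 0.00341), a call lost without GFP DMSO replicate 1 (1.22). With Dox it was higher by 1.01 (SE 0.25, adjusted p of 0.0256). The Dox call was lost without SMARCB1 Dox replicate 1 (0.96), SMARCB1 Dox replicate 2 (1.07) or GFP Dox replicate 1 (0.98). It was also lost with only the groups compared fitted (1.02). B3GLCT was higher by 1.38 with Dox (SE 0.29, adjusted p of 0.00954; 1.20 and no longer called without SMARCB1 Dox replicate 1). LOXL1, a lysyl oxidase that FBLN5 brings to elastin, was lower in the SMARCB1 line. It had 8 and 19 counts in SMARCB1 DMSO and 7 and 6 in SMARCB1 Dox, against 70 and 118 in GFP DMSO and 34 and 50 in GFP Dox. Its log2 difference was −2.29 under DMSO (SE 0.54, adjusted p of 0.0200) and −3.13 with Dox (SE 0.60, adjusted p of 0.00422). The DMSO call was lost without any 1 of its 4 libraries (−2.52 to −2.01) and the Dox call without SMARCB1 Dox replicate 1 (−2.76). Other lysyl oxidases ran the other way, with all SMARCB1-line libraries above all GFP-line libraries. LOXL2 had 818 to 1130 CPM in the SMARCB1 line against 527 to 704 in the GFP line. LOXL3 had 9.62 to 17.8 against 7.61 to 8.73 CPM, and neither was called under DMSO.

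Among 11 tested ligands and activators of latent TGF-beta, edgeR called 1 with more and 3 with fewer footprints in the SMARCB1 line under DMSO, and 2 of each with Dox. ITGB6, the beta subunit of an integrin that activates TGF-beta held by LTBP1, had 173 and 242 counts in GFP DMSO and 110 and 104 in GFP Dox, and 0 in all SMARCB1-line libraries. With 3 counts over a group as the floor, it was at least 98.1-fold higher in the GFP line under DMSO and at least 102-fold with Dox. ITGB5, the beta subunit of another such integrin, was higher in the SMARCB1 line with Dox by 2.30 (SE 0.37, adjusted p of 0.00121). THBS1 (thrombospondin-1), a soluble activator, had 525 and 580 CPM in SMARCB1 DMSO, 347 and 431 in SMARCB1 Dox, 110.2 and 117 in GFP DMSO and 209.9 and 135 in GFP Dox. Its log2 difference was 2.28 under DMSO (SE 0.27, adjusted p of 6.8e-05) and 1.17 with Dox (SE 0.26, adjusted p of 0.0127). The Dox call was lost without SMARCB1 Dox replicate 2 (1.01) or GFP Dox replicate 2 (0.89), and with only the groups compared fitted (1.17). NRROS, which anchors latent TGF-beta at the cell surface, had log2 differences of −1.59 under DMSO (SE 0.38, adjusted p of 0.0205) and −1.50 with Dox (SE 0.38, adjusted p of 0.0284). Its calls were lost without SMARCB1 DMSO replicate 2 (−1.27), GFP DMSO replicate 2 (−1.30), SMARCB1 Dox replicate 1 (−1.70), SMARCB1 Dox replicate 2 (−1.34) or GFP Dox replicate 2 (−1.02). The Dox call was also lost with scaling by library size alone (−1.41) and with only the groups compared fitted (−1.49). The third gene lower under DMSO, TGFB1, the TGF-beta1 ligand itself, had 10.8 and 5.69 CPM in SMARCB1 DMSO against 19.6 and 31.5 in GFP DMSO, while the lines overlapped once the Dox libraries were counted (15.9 and 20.6 in SMARCB1 Dox, 16.7 and 38.3 in GFP Dox). Its log2 difference under DMSO was −1.67 (SE 0.43, adjusted p of 0.0359), and it was no longer called without SMARCB1 DMSO replicate 2 (−1.24) or GFP DMSO replicate 2 (−1.27).

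Of 4 tested BMP and GDF ligands, whose prodomains bind fibrillins, BMP7 was lower in the SMARCB1 line both times. It had 309 and 417 counts in GFP DMSO, 137 and 191 in GFP Dox and 0 in every SMARCB1-line library, which makes it at least 172-fold higher in the GFP line under DMSO and at least 156-fold with Dox. Among 15 tested receptors, SMADs and target genes, 1 was higher and 1 lower under DMSO and 2 were higher with Dox. TGFBR3 (betaglycan), a co-receptor for TGF-beta, was higher in the SMARCB1 line by 2.35 under DMSO (SE 0.28, adjusted p of 8.5e-05) and by 3.02 with Dox (SE 0.30, adjusted p of 1.4e-05), and both calls stood under every alternative. CCN1, a matrix protein and TGF-beta target, was higher with Dox by 1.29 (SE 0.26, adjusted p of 0.00683; 1.05 and no longer called without SMARCB1 Dox replicate 2).

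**Figure D4:**
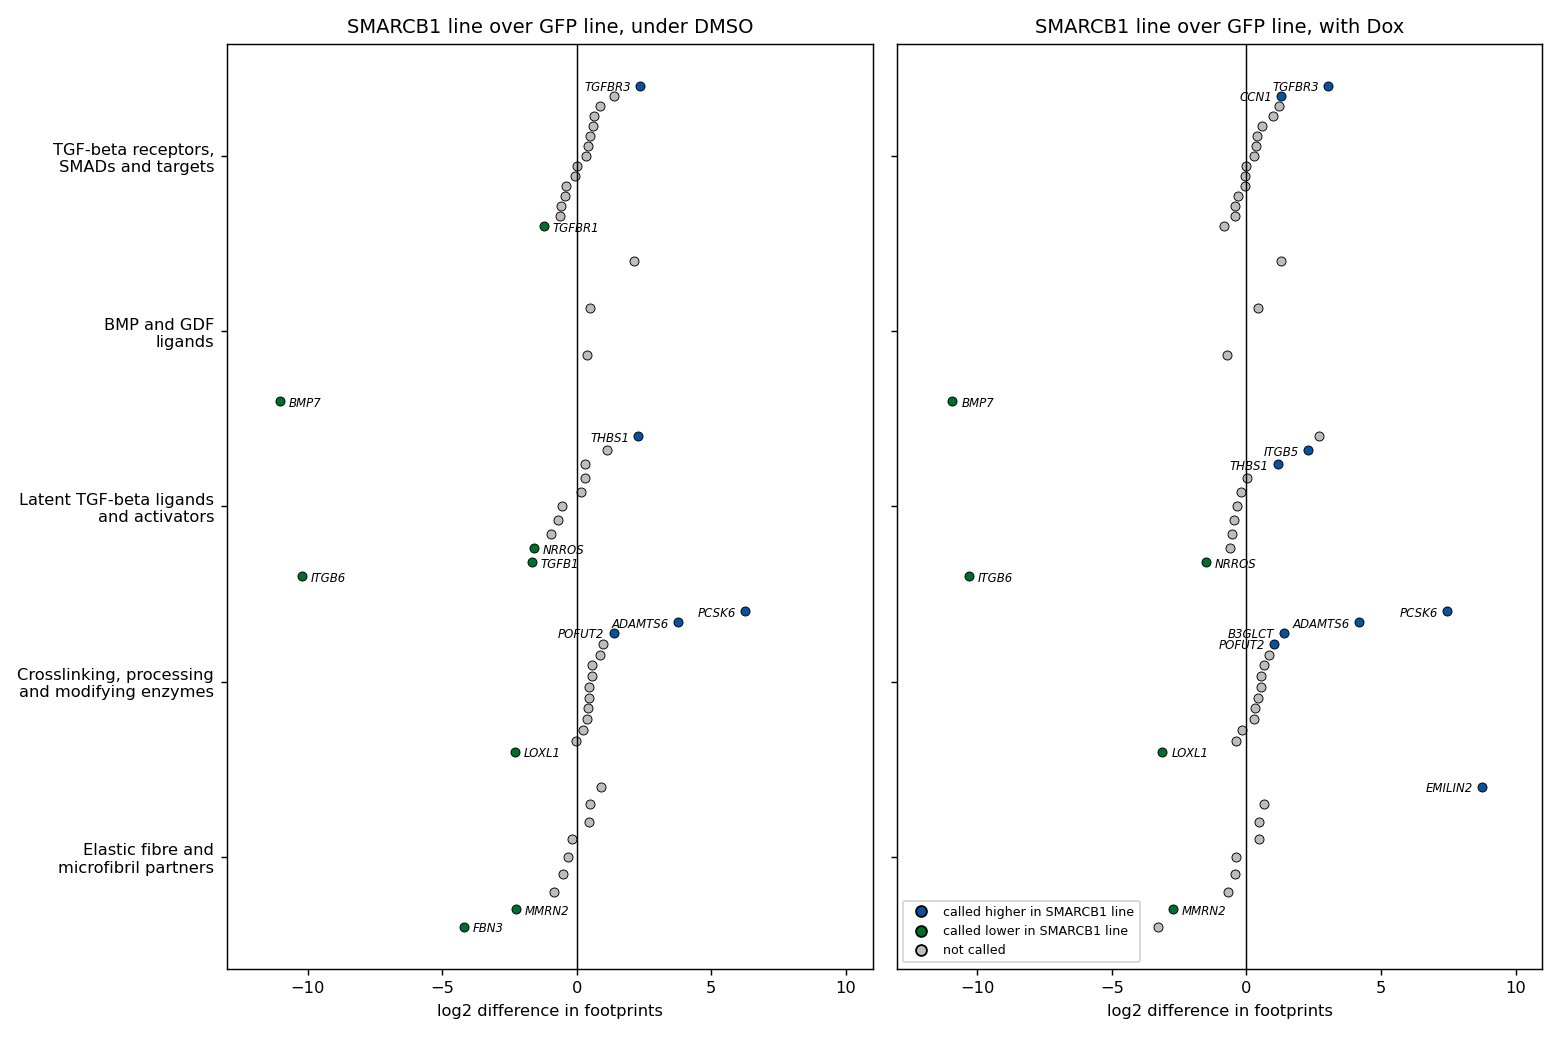
The log2 difference in footprints of the SMARCB1 line over the GFP line under DMSO (left) and with Dox (right) for the 53 tested genes of the 5 lists, 1 point a gene. Blue and green points were called higher and lower in the SMARCB1 line and are named, and grey points were not called. The fitted values of BMP7 and ITGB6, with 0 counts in the SMARCB1 line, and of EMILIN2, with 0 counts in GFP Dox, depend on the prior count of the fit.

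In the Dox comparisons, edgeR's test called 0 of the 53 listed genes in the SMARCB1 line, in the GFP line and for the difference. At an unadjusted p below 0.05 it had 6, 3 and 6 of them, against 552, 240 and 443 of all 11097 genes tested. ITGB6 and BMP7, at 0 counts in all SMARCB1-line libraries, could not change there, which leaves 51 genes with counts in that comparison. DESeq2 called 1, 0 and 0 of the listed genes, and 34, 0 and 1 of all genes. The listed gene was TGFBR1, the type I receptor of TGF-beta. It had 7.84 and 6.70 CPM in SMARCB1 DMSO, 20.8 and 21.1 in SMARCB1 Dox, 18.2 and 15.6 in GFP DMSO and 16.4 and 11.8 in GFP Dox. Both SMARCB1 DMSO libraries were under the other 6. It was also the receptor gene called lower in the SMARCB1 line under DMSO (−1.22, SE 0.32, adjusted p of 0.0375), a call lost without any 1 of the 4 DMSO libraries (−1.33 to −1.11). Its log2 fold change in the SMARCB1 line was 1.53 (SE 0.32, adjusted p of 0.180 in edgeR's test and 0.0121 in DESeq2's).

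Finally, the genes most like FBN2 over the 8 libraries were sought by the root mean square difference of log2 CPM, each gene centered on its own mean. The nearest were RIMS2 (0.56), DKK1 (0.60), SLFN11 (0.76), BMP7 (0.78) and MGST1 (0.85), each on another chromosome than FBN2. All 5 were at 6 counts or fewer in each SMARCB1-line library, which follows from the search, as FBN2 itself was near 0 there. To see whether the gap extended along the chromosome, the genes within 1000000 bases were examined. Of 8 neighbors of FBN2, 3 could be tested, and edgeR and DESeq2 both called 0 of these between the lines under DMSO. Their log2 differences were −0.73 to 0.45, with 1 at an unadjusted p below 0.05 in edgeR. Of all genes tested, edgeR called 4.97% and DESeq2 5.73% there. At such shares, the neighbors tested for FBN2, LTBP1 and LTBP2 cannot decide whether a gap extended. Of 8 tested neighbors of LTBP1, both tools called 0 and edgeR had 0 at an unadjusted p below 0.05, with log2 differences of −0.41 to 0.19. Of 29 tested neighbors of LTBP2, both tools called 1, FOS, at −2.72, and edgeR no longer called it without SMARCB1 DMSO replicate 2 (−2.07).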

How the data were processed

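For 8 libraries, the values deposited are raw read counts on coding sequences, which the authors made with the RiboLace kit and, per the labels, with STAR and HTSeq on hg38; tool versions are not given in the sources used here. The 5 rows of reads without a gene were left out. The 11097 genes kept by filterByExpr were scaled with TMM and fitted with edgeR 4.0.16 (glmQLFit, glmQLFTest, R 4.3.3), with 1 term per group over all libraries. A gene was called at a Benjamini-Hochberg adjusted p below 0.05 over all genes tested and a fold change above 2. DESeq2 1.42.0 was an alternative, as were other scalings, filters, blocks and sets of libraries.

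The members, the lists and the naming rule were chosen with earlier results of these data known. Named are all members, SMARCB1, the 5 genes nearest to FBN2, and, in each list and line comparison, up to 3 called genes in each direction with the smallest p and non-overlapping lines. EMILIN2, TGFB1, TGFBR1 and the Dox value of POFUT2 were named after their values were seen, as was FOS. Positions and coding lengths come from GENCODE 44 on GRCh38 and the counts from release 42. Identities were computed with Biopython 1.88. Count ratios have exact binomial intervals of 95%, and a count of 0 allows up to 3 counts. Replicate libraries differed beyond counting noise (chi-square over its degrees of freedom 14.5 to 45.5). No protein table was given, so coding sequences are printed.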

Additional observations from a re-analysis of the deposited data

How the results depend on the processing

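In each of the 3 Dox comparisons, 0 members were called under every alternative run. For FBN2 in the SMARCB1 line that outcome was fixed by its near absence there. Samples were treated as paired only if the deviations of same-numbered libraries correlated over 0.1 in every pair. This held for 5 of 6 pairs, with the lowest at 0.045, so the numbers were not used, although a shared origin cannot be told from these values. With the replicate block, 0 members were called, 14 listed genes differed between the lines under DMSO (26.4%, against 5.43% of all genes) and 16 with Dox (30.2%, against 6.61%), 13 of all genes were called for Dox in the SMARCB1 line against 2 without the block, and FBN2 had a Dox effect of −0.079 in the SMARCB1 line. Scaling by library size alone moved the median log2 value of all genes by 0.11 for Dox in the SMARCB1 line, 0.19 for the difference of the Dox effects and 0.12 for the lines with Dox, and gave LTBP1 a Dox effect of 0.091 in the SMARCB1 line and FBN2 a difference of 0.018. Fitting only the groups compared gave LTBP1 0.0027. With at least 10 counts in every library, which drops genes absent from a line, 5 of 42 listed genes were called under DMSO (11.9%, against 3.06% of all genes) and 8 of 42 with Dox (19.0%, against 377 of 9424 genes). Leaving out each library gave 6 to 12 listed genes under DMSO (11.1% to 21.8%, against 2.67% to 3.76% of all genes) and 10 to 16 with Dox (18.5% to 29.1%, against 3.12% to 11.8%). Of all genes, 34 were called for Dox in the SMARCB1 line by DESeq2 and 46 without the filter on low counts.

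Small Dox effects changed sign when single libraries were left out, and the cause was not tested. In the SMARCB1 line the log2 values ran from −2.31 to 2.43 for FBN2, −0.21 to 0.16 for LTBP1, −0.45 to 0.056 for LTBP2, −0.072 to 0.67 for MFAP2 and −0.018 to 0.35 for FBLN5. In the GFP line they ran from −0.036 to 0.36 for FBN1 and −0.080 to 0.44 for FBN2. For the difference they ran from −2.52 to 2.23 for FBN2 and −0.033 to 0.33 for LTBP1, and for FBN1 between the lines with Dox from −0.12 to 0.27. Without GFP Dox replicate 2, the GFP line rests on the library with the most multiply aligned reads, and 147 of all genes were called for its Dox effect, against 0 with both libraries. Of the values of the named genes of the lists under an alternative, 294 kept their side of the threshold, 39 lost the call, 2 gained it and 0 changed sign. At 2 libraries a group, low genes such as EMILIN1 and FBN3 have wide intervals.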
